A study of Mus musculus with 9 samples.

Results

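The adult mouse lens was compared with an adult mouse tendon across all transcripts measured on an oligonucleotide array. The comparison used the 2 arrays titled adult mouse Lens and the 2 titled mouse tendon, 4 of the 9 arrays in the series, and 12422 of the 12488 probe sets, after 66 manufacturer's controls were set aside. The tendon was the flexor digitorum longus, which flexes the digits of the hind foot. Lens and tendon came from mice 7 weeks old, and no treatment, transgene or mutation is given for any group. Each array of a tissue was hybridised with biotin-labelled target from its own RNA preparation, and the labels describe the lens and tendon RNA as coming from pooled tissue, so p-values measure the spread between preparations and not between animals. Strain and sex are not given in the sources used here. The other 5 arrays, 3 of adult cornea and 2 of cornea at postnatal day 10, entered the fit only to estimate the spread. The labels were checked against tissue genes: crystallin indices were high on both lens arrays, and type I collagen and scleraxis indices on both tendon arrays. Whole tissues were extracted, so more RNA per cell and more cells of a type cannot be told apart.

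The lens is an avascular body of elongated fibre cells under a sheet of epithelium, enclosed in a capsule of basement membrane. Its fibre cells lose their organelles as they mature and fill with crystallins, soluble proteins that refract light and, in the alpha family, also act as chaperones. Tendon is a nearly opposite tissue, with few cells between parallel collagen fibrils that carry force from muscle to bone, and its matrix is ordered by small leucine-rich proteoglycans and crosslinked by lysyl oxidase. The whole-organ dissections can also carry neighbouring tissue, such as retina, iris and ciliary body beside the lens and muscle, fat and skin beside a tendon, so markers of those tissues were read on the same arrays.

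Each value below is an expression index in arbitrary units as deposited, with replicate 1 before replicate 2. Differences are in log2 of the index plus 16, with values below 0 set to 0, always lens minus tendon, and a fold is the same difference on a linear scale. No fold is given for a gene whose mean index was at or below 0 in a tissue. A gene is called higher where limma's moderated test gave an adjusted p under 0.05, and each gene is read from the probe set with its highest mean over all arrays. The replicates correlated at r = 0.961 in lens and 0.980 in tendon across probe sets, and the tissues correlated with each other at 0.593 to 0.637. Lens replicate 1 exceeded lens replicate 2 by at least 2-fold at 154 of the 5446 probe sets that reached 100 on either array, and the reverse held at 13. In tendon these counts were 19 and 25 of 5409. The 3'/5' signal ratio of the beta actin control, a measure of RNA integrity, was 1.81 and 2.07 on the lens arrays and 1.12 and 1.08 on the tendon arrays, and its part in the differences below was not tested. That of Gapdh was 0.893 and 0.844 in lens and 0.850 and 0.858 in tendon. With 2 arrays a tissue, an exact two-sided permutation test cannot give a p below 0.333, so every call rests on the model's shared estimate of the spread.

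Of the 12422 probe sets, 2223 (17.9%) were higher in lens and 2633 (21.2%) higher in tendon. A difference of at least 2-fold was called for 1544 (12.4%) toward the lens and 1824 (14.7%) toward the tendon, and one of at least 16-fold for 94 and 147. By gene, 1557 of 8251 (18.9%) were higher in lens and 1916 (23.2%) in tendon. The arrays of the tissues did not overlap at 74.2% of all probe sets and 76.0% of genes. These shares are the background against which the counts of any gene group below are to be read. The median difference over all genes was -0.058 on the log2 scale. The balance between the directions depended on scaling, with 45.8% of calls toward the lens as deposited, 51.5% after median centring and 51.1% after quantile normalization. It also moved with single arrays, to 40.1% without lens replicate 1 and 49.9% without lens replicate 2. Leaving out tendon replicate 1 left 1373 probe sets higher in lens and 1782 in tendon, and leaving out tendon replicate 2 left 1544 and 1668.

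**Figure D1:**
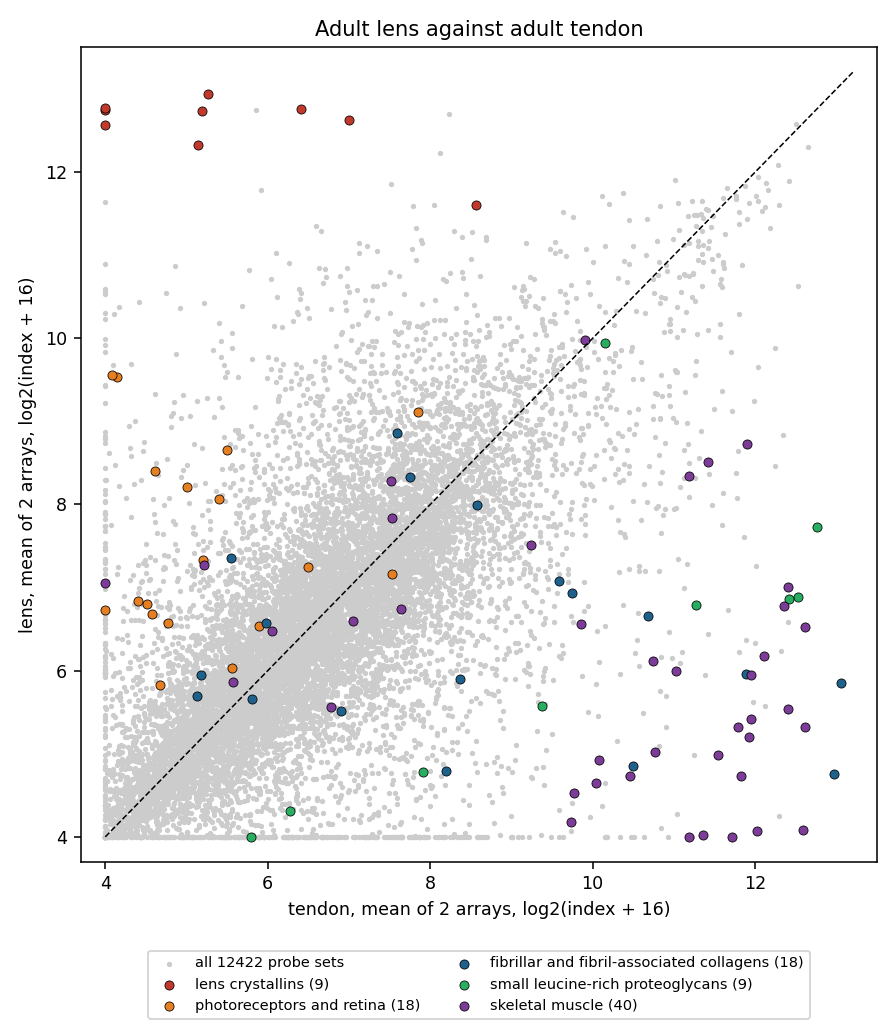
Mean log2(index + 16) of the 2 tendon arrays (horizontal) against that of the 2 lens arrays (vertical) for all probe sets in grey, with 5 gene lists in colour and the line of equality dashed. Crystallins lie at the upper left and most collagens, proteoglycans and muscle genes below the line, while photoreceptor genes lie mostly above the line at lower lens levels.

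Crystallins had the widest median difference of the 29 gene lists. All 9 crystallin genes with a probe set of their own were higher in lens, and their median log2 difference was 7.54. Cryaa encodes alpha-A crystallin, a small heat shock protein and one of the main soluble lens proteins. It read 6405 and 7231 in lens and 12.2 and 31.7 in tendon (186-fold, log2 7.54 ± 0.38 SE, limma adjusted p = 1.77e-07). Cryba1, a beta crystallin gene, gave 5926 and 6202 in lens and -19.0 and -9.04 in tendon (log2 8.57 ± 0.29 SE, limma adjusted p = 1.71e-08). Crybb2, another, gave 6628 and 7122 in lens and -52.4 and -36.9 in tendon (log2 8.75 ± 0.27 SE, limma adjusted p = 1.71e-08). Both beta crystallins were below 0 on each tendon array, so the tissues did not overlap, as for 76.0% of all genes.

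The gamma crystallins, compact monomers of the dense lens core, showed the same separation. Crygc measured 6486 and 7492 in lens and -77.7 and -67.9 in tendon (log2 8.77 ± 0.27 SE, limma adjusted p = 1.71e-08). Crygd measured 7582 and 8079 in lens and 21.6 and 23.1 in tendon (205-fold, log2 7.68 ± 0.32 SE, limma adjusted p = 6.30e-08). Crygb stood at 5027 and 5164 in lens and 25.2 and 14.2 in tendon (145-fold, log2 7.18 ± 0.25 SE, limma adjusted p = 1.71e-08), and Cryge at 6557 and 7310.5 in lens and 61.5 and 77.3 in tendon (81.6-fold, log2 6.35 ± 0.32 SE, limma adjusted p = 1.77e-07). Crygs, expressed in the younger cortical fibres, read 6002 and 6652 in lens and 105 and 119 in tendon (49.7-fold, log2 5.64 ± 0.29 SE, limma adjusted p = 1.97e-07). The identifiers of the Crygd and Cryge probe sets carry the manufacturer's mark for probes shared within a gene family, so these members may share signal. A different Crygd probe set went the other way, at 171 and 200.1 in lens and 2067 and 1594 in tendon (limma adjusted p = 4.27e-06).

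Cryab, the alpha-B crystallin gene, is also expressed in muscle and other tissues. It had the smallest difference of the list, at 3252 and 2958 in lens and 356 and 371 in tendon (8.22-fold, log2 3.04 ± 0.20 SE, limma adjusted p = 1.15e-06). Both tendon arrays stayed far below both lens arrays. The neighbouring gene Hspb2 shares a promoter region with Cryab and encodes a muscle-enriched small heat shock protein. On its brightest probe set it went the same way, at 1698 and 1812 in lens and 261 and 313 in tendon (5.86-fold, log2 2.55 ± 0.21 SE, limma adjusted p = 4.68e-06). Another Hspb2 probe set was not called, at 110.5 and 74.6 in lens and 109.2 and 138.2 in tendon (limma adjusted p = 0.327).

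Promoter windows are shown because these genes differ in the same direction. RefSeq windows on build GRCm38.p6 were available for 8 of the 9 measured crystallin genes, and the 250 bases before each start were searched for TGCTGA, the core of the site bound by Maf family factors, on both strands, and for TATAAA on the sense strand. Matches of these motifs cannot overlap. TGCTGA occurred in 4 of the 8 crystallin windows and in 16.1% of all 32851 windows, and TATAAA in 2 of the 8 and in 7.59% of all. A match is a description of letters and not of binding. The windows of Cryaa (chr17:31677681-31677930, plus strand), Cryba1 (chr11:77725294-77725543, minus strand) and Crygs (chr16:22811411-22811660, minus strand) are printed 5' to 3' with both motifs in capitals, TGCTGA starting at -108 in Cryaa and -57 in Cryba1, its reverse complement TCAGCA at -200 in Crygs, and TATAAA at -23 in Cryba1 and -25 in Crygs, counted from the start.
Cryaa: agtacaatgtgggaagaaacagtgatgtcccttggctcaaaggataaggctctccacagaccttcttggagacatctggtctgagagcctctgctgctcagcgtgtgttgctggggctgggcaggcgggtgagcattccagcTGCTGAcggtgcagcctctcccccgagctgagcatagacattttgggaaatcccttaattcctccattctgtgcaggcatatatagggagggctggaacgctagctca
Cryba1: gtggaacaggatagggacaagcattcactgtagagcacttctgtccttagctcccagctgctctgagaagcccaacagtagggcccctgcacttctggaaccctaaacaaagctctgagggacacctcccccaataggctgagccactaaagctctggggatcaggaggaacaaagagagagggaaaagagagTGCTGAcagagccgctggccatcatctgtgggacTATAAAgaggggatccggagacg
Crygs: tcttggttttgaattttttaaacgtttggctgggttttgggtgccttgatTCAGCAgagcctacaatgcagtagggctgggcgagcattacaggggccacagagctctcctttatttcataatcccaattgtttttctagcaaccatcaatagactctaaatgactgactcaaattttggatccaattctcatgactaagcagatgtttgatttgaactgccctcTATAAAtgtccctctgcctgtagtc

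Crygb, Crygc, Crygd and Cryge lie in a cluster on chromosome 1, all on the minus strand. The last 120 bases before the starts of Crygd and Cryge hold an identical run of 56 bases, given here in capitals. This is the pair whose probe sets are marked as shared. The longest run that Crygc has in common with Crygd is of 18 bases, also in capitals, and the same letters lie within the Cryge run. The windows span chr1:65073533-65073652, chr1:65063441-65063560 and chr1:65051164-65051283.
Crygc: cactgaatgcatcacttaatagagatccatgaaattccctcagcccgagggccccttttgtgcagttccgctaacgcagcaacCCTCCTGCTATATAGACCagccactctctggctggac
Crygd: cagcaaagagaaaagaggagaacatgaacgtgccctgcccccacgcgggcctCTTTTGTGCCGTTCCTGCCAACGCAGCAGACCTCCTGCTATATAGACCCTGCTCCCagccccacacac
Cryge: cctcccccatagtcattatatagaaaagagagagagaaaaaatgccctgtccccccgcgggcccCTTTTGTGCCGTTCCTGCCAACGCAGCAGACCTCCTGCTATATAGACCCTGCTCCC

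Genes of lens fibre membranes and cytoskeleton were divided. Of 17 measured, 8 were higher in lens and 2 in tendon, with a median of 0.79. Mip, which encodes aquaporin 0, the main membrane protein of fibre cells, read 1918 and 1799.6 in lens and 11.7 and 14.2 in tendon (64.8-fold, log2 6.02 ± 0.24 SE, limma adjusted p = 5.17e-08). Bfsp1, which encodes filensin of the beaded filament, read 3731 and 3300.0 in lens and 46.3 and 42.6 in tendon (58.3-fold, log2 5.87 ± 0.20 SE, limma adjusted p = 1.71e-08). Gja3, the connexin 46 gene that couples fibre cells, was at 546 and 415 in lens and 0.47 and 7.27 in tendon (25.1-fold, log2 4.65 ± 0.25 SE, limma adjusted p = 2.37e-07). None of these 3 overlapped between the tissues, as for 76.0% of all genes, and their tendon readings lay below 50. Lim2 and Bfsp2, also of fibre cells, had no probe set assigned to them alone.

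Other members higher in lens included cell adhesion genes. Caprin2, a cytoplasmic RNA-binding protein gene, measured 801 and 492 in lens and 8.69 and 8.40 in tendon (26.3-fold, log2 4.71 ± 0.25 SE, limma adjusted p = 2.55e-07). Cdh2, encoding N-cadherin, measured 549 and 300.2 in lens and 11.8 and 26.2 in tendon (12.4-fold, log2 3.63 ± 0.37 SE, limma adjusted p = 2.30e-05). Nrcam, a neural cell adhesion molecule, read 402 and 241 in lens and 6.45 and 12.02 in tendon (13.1-fold, log2 3.71 ± 0.27 SE, limma adjusted p = 2.03e-06). Fabp5, a fatty acid binding protein, stood at 6267 and 6961 in lens and 358 and 224 in tendon (22.1-fold, log2 4.47 ± 0.27 SE, limma adjusted p = 5.89e-07). Vim, the vimentin gene of both fibre cells and fibroblasts, was not called, at 164 and 181 in lens and 150.1 and 130.0 in tendon (limma adjusted p = 0.523), nor was the spectrin gene Sptbn1, at 1678 and 1039 in lens and 1034 and 1094 in tendon (limma adjusted p = 0.465). Gja1, the connexin 43 gene, was higher in tendon, at 1022 and 494 in lens and 1546 and 1551 in tendon (2.15-fold, log2 -1.10 ± 0.30 SE, limma adjusted p = 0.0134). That call was lost without lens replicate 2 (limma adjusted p = 0.0836), tendon replicate 1 (0.0782) or tendon replicate 2 (0.0792). It was also lost in a fit of only the 4 arrays (0.0639) and with the mean over probe sets, at log2 -0.53 (0.263). The list's count toward tendon fell to 1 without either lens array and to 0 without either tendon array.

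**Figure D2:**
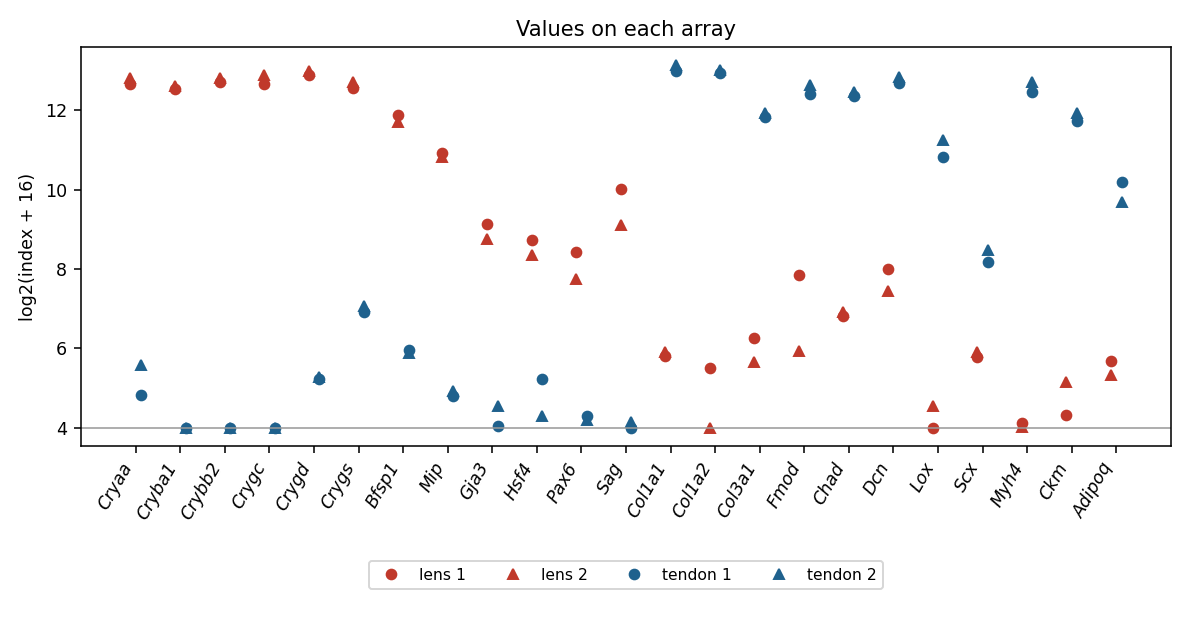
Log2(index + 16) on each of the 4 arrays for 23 genes of lens (left), retina (Sag) and tendon, muscle and fat (right), with circles for replicate 1, triangles for replicate 2, lens in red and tendon in blue. The grey line at 4 is the floor for indices at or below 0. The tissues do not overlap for any gene drawn, as for 76.0% of all genes. The widest gaps between replicates are in lens, for Fmod and Col1a2.

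Among 20 transcription factors of eye and lens development, 8 were higher in lens and 3 in tendon. Pax6, the paired-box factor required for eye formation, read 326 and 199 in lens and 3.80 and 2.39 in tendon (14.2-fold, log2 3.83 ± 0.27 SE, limma adjusted p = 1.82e-06). Sox2, a partner of Pax6 at crystallin enhancers, read 548 and 312 in lens and 5.06 and 7.67 in tendon (19.3-fold, log2 4.27 ± 0.27 SE, limma adjusted p = 8.38e-07). Hsf4, the heat shock factor of lens fibres, read 408 and 311 in lens and 21.3 and 3.60 in tendon (13.8-fold, log2 3.78 ± 0.29 SE, limma adjusted p = 3.09e-06). Prox1, a homeobox factor of fibre elongation, read 233 and 175 in lens and 17.6 and 8.94 in tendon (7.52-fold, log2 2.91 ± 0.30 SE, limma adjusted p = 2.57e-05). Pitx3, mutated in the aphakia mouse that lacks a normal lens, was at 386 and 247 in lens and 127 and 106 in tendon (2.46-fold, log2 1.30 ± 0.25 SE, limma adjusted p = 0.00187). In all 5 genes lens replicate 1 was above replicate 2. Maf, whose product drives crystallin transcription, was at 72.0 and 61.2 in lens and 53.3 and 54.1 in tendon and was not called (limma adjusted p = 0.467).

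Some eye factors read higher in tendon. Six3 was at -30.0 and -22.1 in lens and 90.1 and 89.2 in tendon (log2 -2.72 ± 0.23 SE, limma adjusted p = 5.55e-06), but its other probe set was higher in lens, at 91.7 and 56.9 in lens and 32.0 and 27.4 in tendon (limma adjusted p = 0.0114), so the direction of Six3 belongs to the probe set. Sox1 stood at 52.6 and 36.9 in lens and 159 and 149 in tendon (2.82-fold, log2 -1.50 ± 0.32 SE, limma adjusted p = 0.00364). Without lens replicate 1, tendon replicate 1 or tendon replicate 2 the list held 5 genes higher in lens and 2 in tendon. Retinal genes moved with this list, and their levels are given with the markers of other tissues. Their part in these differences was not tested.

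Other genes with the widest margins toward the lens were of mixed function. Klk1b8, of the kallikrein serine protease family, had 6592 and 6843 in lens and -61.4 and -25.0 in tendon (log2 8.72 ± 0.29 SE, limma adjusted p = 1.71e-08), and its second probe set went the same way at 945 and 1064 in lens and -63.0 and -56.3 in tendon. Mgat3, a glycosyltransferase of N-glycan branching, read 1634 and 1433 in lens and -24.6 and -28.5 in tendon (log2 6.59 ± 0.39 SE, limma adjusted p = 4.47e-07), Akr1c13, an aldo-keto reductase, 1603 and 1376 in lens and -40.5 and -25.2 in tendon (log2 6.55 ± 0.53 SE, limma adjusted p = 4.67e-06). Apip, an enzyme of methionine salvage, read 1171 and 1330.2 in lens and -86.2 and -73.7 in tendon (log2 6.30 ± 0.68 SE, limma adjusted p = 3.51e-05). All were below 0 on both tendon arrays. Mpeg1, known from macrophages, was at 1610.4 and 2208 in lens and -2.83 and -4.94 in tendon (log2 6.89 ± 0.31 SE, limma adjusted p = 8.01e-08), while its other probe set was not called, at 117 and 126 in lens and 199.6 and 218 in tendon (limma adjusted p = 0.0672).

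Chaperones leaned toward the lens. Of 26 genes 11 were higher in lens and 1 in tendon, with a median of 0.70. Hsp90aa1, a cytosolic Hsp90, measured 1364 and 898 in lens and 184 and 209 in tendon (5.30-fold, log2 2.40 ± 0.24 SE, limma adjusted p = 1.82e-05), and its cochaperone Dnajb1 measured 273 and 181 in lens and 28.1 and 38.4 in tendon (4.86-fold, log2 2.28 ± 0.26 SE, limma adjusted p = 5.26e-05). Tcp1 and Cct5, subunits of the ring chaperonin that folds actin and tubulin, were 4.46-fold and 3.69-fold higher in lens (limma adjusted p = 0.000335 and limma adjusted p = 0.000148). Another Tcp1 probe set was not called, at 99.99 and 109.7 in lens and 88.7 and 105.9 in tendon (limma adjusted p = 0.784). Hspe1, the mitochondrial cochaperonin, was 4.25-fold higher (limma adjusted p = 4.11e-05). Bag3, a muscle-linked cochaperone, was the member higher in tendon, at 115 and 81.7 in lens and 253 and 269.7 in tendon (2.45-fold, log2 -1.29 ± 0.26 SE, limma adjusted p = 0.00254). The count toward lens was 7 without lens replicate 1, where the count toward tendon was 2. The count toward tendon was 2 without adult cornea replicate 2 and 3 without adult cornea replicate 3.

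Glutathione and peroxide defence genes split by member. Of 38, 13 were higher in lens and 11 in tendon (6 in tendon without tendon replicate 1), with a median of -0.22. Aldh3a1, an aldehyde dehydrogenase, read 696 and 484 in lens and -6.41 and -14.1 in tendon (log2 5.22 ± 0.22 SE, limma adjusted p = 6.08e-08). Hmox1, heme oxygenase 1, read 2206 and 1940.0 in lens and 117 and 131 in tendon (14.9-fold, log2 3.90 ± 0.24 SE, limma adjusted p = 6.50e-07). Both enzymes of glutathione synthesis named here were higher in lens: Gss, glutathione synthetase, at 823 and 422 in lens and 53.0 and 54.8 in tendon (8.67-fold, log2 3.12 ± 0.33 SE, limma adjusted p = 3.46e-05). Gclc, the catalytic subunit of the first step, was at 168 and 99.8 in lens and 15.98 and 24.7 in tendon (4.05-fold, log2 2.02 ± 0.29 SE, limma adjusted p = 0.000322). Gstp1, a glutathione transferase, was 3.72-fold higher in lens (limma adjusted p = 0.000108). Others were higher in tendon. Gpx3, the plasma glutathione peroxidase, was at 213 and 81.4 in lens and 914 and 723 in tendon (5.55-fold, log2 -2.47 ± 0.38 SE, limma adjusted p = 0.000462), Sod3, the extracellular superoxide dismutase, at 75.6 and 48.9 in lens and 613 and 656 in tendon (8.43-fold, log2 -3.08 ± 0.27 SE, limma adjusted p = 8.99e-06). Mgst3, a microsomal glutathione transferase, was at 48.7 and 38.9 in lens and 479.9 and 543 in tendon (8.84-fold, log2 -3.14 ± 0.38 SE, limma adjusted p = 8.93e-05). Sod1, the cytosolic superoxide dismutase, was not called, at 799 and 617 in lens and 511 and 551 in tendon (limma adjusted p = 0.206).

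Fibrillar collagens were among the widest differences toward tendon. Col1a1 and Col1a2 encode the chains of type I collagen, the main protein of tendon. Col1a1 read 39.9 and 43.6 in lens and 8130.2 and 8924 in tendon (148-fold, log2 -7.21 ± 0.17 SE, limma adjusted p = 6.16e-09), and a second probe set read 52.1 and 65.5 in lens and 3409 and 3681 in tendon. Col1a2 read 29.4 and -49.3 in lens and 7758 and 8277 in tendon (log2 -8.22 ± 0.39 SE, limma adjusted p = 1.19e-07). Another Col1a2 probe set was not called, at 220.0 and 270.3 in lens and 171.6 and 183.2 in tendon (limma adjusted p = 0.132). Col3a1, the chain of the thinner type III fibrils, read 60.6 and 34.4 in lens and 3615 and 3898 in tendon (60.7-fold, log2 -5.92 ± 0.31 SE, limma adjusted p = 2.11e-07), and its other probe sets went the same way. The tissues did not overlap for any of these chains, as for 76.0% of all genes. The lens readings of Col1a2 differed in sign between replicates.

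Of 18 fibrillar and fibril-associated collagen genes 10 were higher in tendon and 2 in lens, with a median of -1.93. Col5a2 and Col11a1, minor fibrillar chains that set fibril diameter, were at 1421 and 1431 and 268 and 286 in tendon and at 14.8 and 11.2 and 15.4 and 8.41 in lens (49.8-fold and 10.6-fold, limma adjusted p = 3.28e-07 and limma adjusted p = 3.85e-06). Col6a1 and Col6a3, chains of the pericellular type VI network, were 16.3-fold and 7.04-fold higher in tendon (limma adjusted p = 3.16e-07 and limma adjusted p = 0.000483). The genes higher in lens, both known from cartilage, were Col9a2 and Col10a1. Col9a2 was at 437 and 459 in lens and 164 and 189.9 in tendon (2.41-fold, log2 1.27 ± 0.25 SE, limma adjusted p = 0.00206). Col10a1 was at 38.4 and 53.4 in lens and 18.2 and 22.6 in tendon (1.69-fold, log2 0.76 ± 0.21 SE, limma adjusted p = 0.0139). The Col10a1 call was lost without lens replicate 2 (limma adjusted p = 0.0811) or tendon replicate 1 (0.0882). Col11a2 was not called, since tendon replicate 1 stood at -44.7 and replicate 2 at 121, and without tendon replicate 2 it passed (limma adjusted p = 5.13e-05). Without tendon replicate 1, 1 collagen gene was higher in lens and 9 in tendon. Median centring and quantile normalization each gave 5 in lens and 10 in tendon.

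Small leucine-rich proteoglycans bind collagen and control fibril growth. Of 9 measured, 8 were higher in tendon and 0 in lens, with a median of -3.80. Fmod, which encodes fibromodulin, read 215 and 45.2 in lens and 5455 and 6342 in tendon (49.7-fold, log2 -5.63 ± 0.50 SE, limma adjusted p = 8.43e-06). The lens arrays differed from each other for Fmod more than the tendon arrays did. Chad, encoding the cartilage and tendon protein chondroadherin, read 97.0 and 104 in lens and 5239 and 5617 in tendon (46.7-fold, log2 -5.55 ± 0.22 SE, limma adjusted p = 4.80e-08). Dcn, the decorin gene, read 242 and 157 in lens and 6588 and 7248 in tendon (32.8-fold, log2 -5.03 ± 0.22 SE, limma adjusted p = 7.32e-08). Bgn, for biglycan, stood at 103 and 86.4 in lens and 2706 and 2235 in tendon (22.4-fold, log2 -4.49 ± 0.24 SE, limma adjusted p = 2.41e-07). Lum, for lumican, was at 35.2 and 28.5 in lens and 631 and 668 in tendon (13.9-fold, log2 -3.80 ± 0.29 SE, limma adjusted p = 3.24e-06). Kera, for keratocan, was at 15.8 and 7.69 in lens and 213 and 236 in tendon (8.74-fold, log2 -3.13 ± 0.32 SE, limma adjusted p = 2.53e-05). Omd, for osteomodulin, and Epyc, for epiphycan, were lower on all arrays and also higher in tendon (limma adjusted p = 4.30e-05 and limma adjusted p = 0.000911). Ogn, the osteoglycin or mimecan gene, was the member not called. It read 1216 and 771 in lens and 1045 and 1208 in tendon (limma adjusted p = 0.61), so its tissues overlapped while the other members stayed apart.

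Enzymes that fold and crosslink collagen were partly higher in tendon, with 6 of 13 in that direction and 3 in the other. Lox, the lysyl oxidase that crosslinks collagen and elastin, measured -39.2 and 7.55 in lens and 1800.5 and 2418 in tendon (log2 -6.76 ± 0.38 SE, limma adjusted p = 3.27e-07). Pcolce, an enhancer of procollagen processing, measured 149.5 and 114 in lens and 1429 and 1578 in tendon (10.3-fold, log2 -3.37 ± 0.27 SE, limma adjusted p = 4.12e-06). Serpinh1, the collagen chaperone Hsp47, read 580.0 and 321 in lens and 1545 and 1914 in tendon (3.87-fold, log2 -1.95 ± 0.35 SE, limma adjusted p = 0.00127). Crtap, of the prolyl 3-hydroxylation complex, was 4.53-fold higher (limma adjusted p = 5.68e-05), and Tgm2, a transglutaminase, 7.63-fold higher (limma adjusted p = 0.000194). Plod3, a lysyl hydroxylase and glycosyltransferase, read higher in lens, at 734 and 667 in lens and 89.9 and 150.0 in tendon (5.40-fold, log2 2.43 ± 0.35 SE, limma adjusted p = 0.000299). Another of its probe sets read higher in tendon, at 65.5 and 41.3 in lens and 108 and 118 in tendon (limma adjusted p = 0.0132), and the mean over its probe sets was not called (limma adjusted p = 0.0772). With means over probe sets, 0 genes of this list were higher in lens by limma.

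Tendon lineage and matrix genes were higher in tendon for 9 of 11 members. Fmod, Chad and Kera are also in the proteoglycan list. Among the 9 was Egr1, whose other probe set was higher in lens, at 25.7 and 71.4 in lens and 1.24 and 3.69 in tendon (limma adjusted p = 0.00613). The mean over the Egr1 probe sets was not called, at log2 0.37 (limma adjusted p = 0.17). Scx, which encodes scleraxis, the transcription factor that marks tendon progenitors, read 39.4 and 44.3 in lens and 272 and 340.2 in tendon (5.54-fold, log2 -2.47 ± 0.24 SE, limma adjusted p = 1.76e-05). Cilp2, a matrix protein related to cartilage intermediate layer protein, read 83.6 and 76.7 in lens and 5125 and 5728 in tendon (56.6-fold, log2 -5.82 ± 0.19 SE, limma adjusted p = 1.71e-08). Tgfbi and Tnc, encoding secreted adhesion proteins of connective tissue, were 7.64-fold and 4.97-fold higher (limma adjusted p = 8.74e-07 and limma adjusted p = 9.93e-06). Tnmd, Comp and Thbs4, which also mark tendon, had no probe set of their own. Dkk3, a secreted protein of the Dickkopf family, went to lens, was at 1752 and 1108 in lens and 129.7 and 132 in tendon (9.61-fold, log2 3.26 ± 0.36 SE, limma adjusted p = 4.40e-05). Egr2, a factor for collagen transcription in tendon, was 2.06-fold higher in tendon (limma adjusted p = 0.0086), but not called without lens replicate 2 (limma adjusted p = 0.0566), tendon replicate 1 (0.0535) or tendon replicate 2 (0.0612).

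Matricellular and elastic fibre genes were higher in tendon for 23 of 29 members and higher in lens for 0 by limma. The count toward lens was 1 without adult cornea replicate 1 or 3 and after median centring or quantile normalization. Of the 29, 24 had an unadjusted p under 0.05. Among the 23 toward tendon, Hapln1 and Matn1 were not called after median centring (limma adjusted p = 0.0950 and 0.0842) or quantile normalization (0.138 and 0.0687). Neither was called in a fit of only the 4 arrays (limma adjusted p = 0.0533 and 0.0608). Fn1, the fibronectin gene, measured 142 and 134 in lens and 4035 and 4179 in tendon (26.8-fold, log2 -4.74 ± 0.25 SE, limma adjusted p = 2.28e-07). Sparc, encoding osteonectin, measured 654 and 294 in lens and 4947 and 5379.9 in tendon (11.4-fold, log2 -3.51 ± 0.37 SE, limma adjusted p = 2.85e-05). Postn, for periostin, was at 16.3 and -3.66 in lens and 409 and 407 in tendon (18.6-fold, log2 -4.22 ± 0.32 SE, limma adjusted p = 3.24e-06), Tnxb, for tenascin X, at 14.8 and 12.5 in lens and 321 and 400.0 in tendon (12.6-fold, log2 -3.66 ± 0.28 SE, limma adjusted p = 3.17e-06). Eln, for elastin, was at 55.9 and 47.2 in lens and 339 and 416 in tendon (5.81-fold, log2 -2.54 ± 0.23 SE, limma adjusted p = 9.35e-06). Thbs2 and Ccn2, a thrombospondin and a growth factor modulator, were 6.26-fold and 8.81-fold higher in tendon (limma adjusted p = 3.99e-06 and limma adjusted p = 1.60e-05). Mfap5, a microfibril protein, was 14.1-fold higher in tendon (limma adjusted p = 7.48e-07), yet another of its probe sets was higher in lens, at 252 and 212 in lens and 69.1 and 112 in tendon (limma adjusted p = 0.00638).

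**Figure D3:**
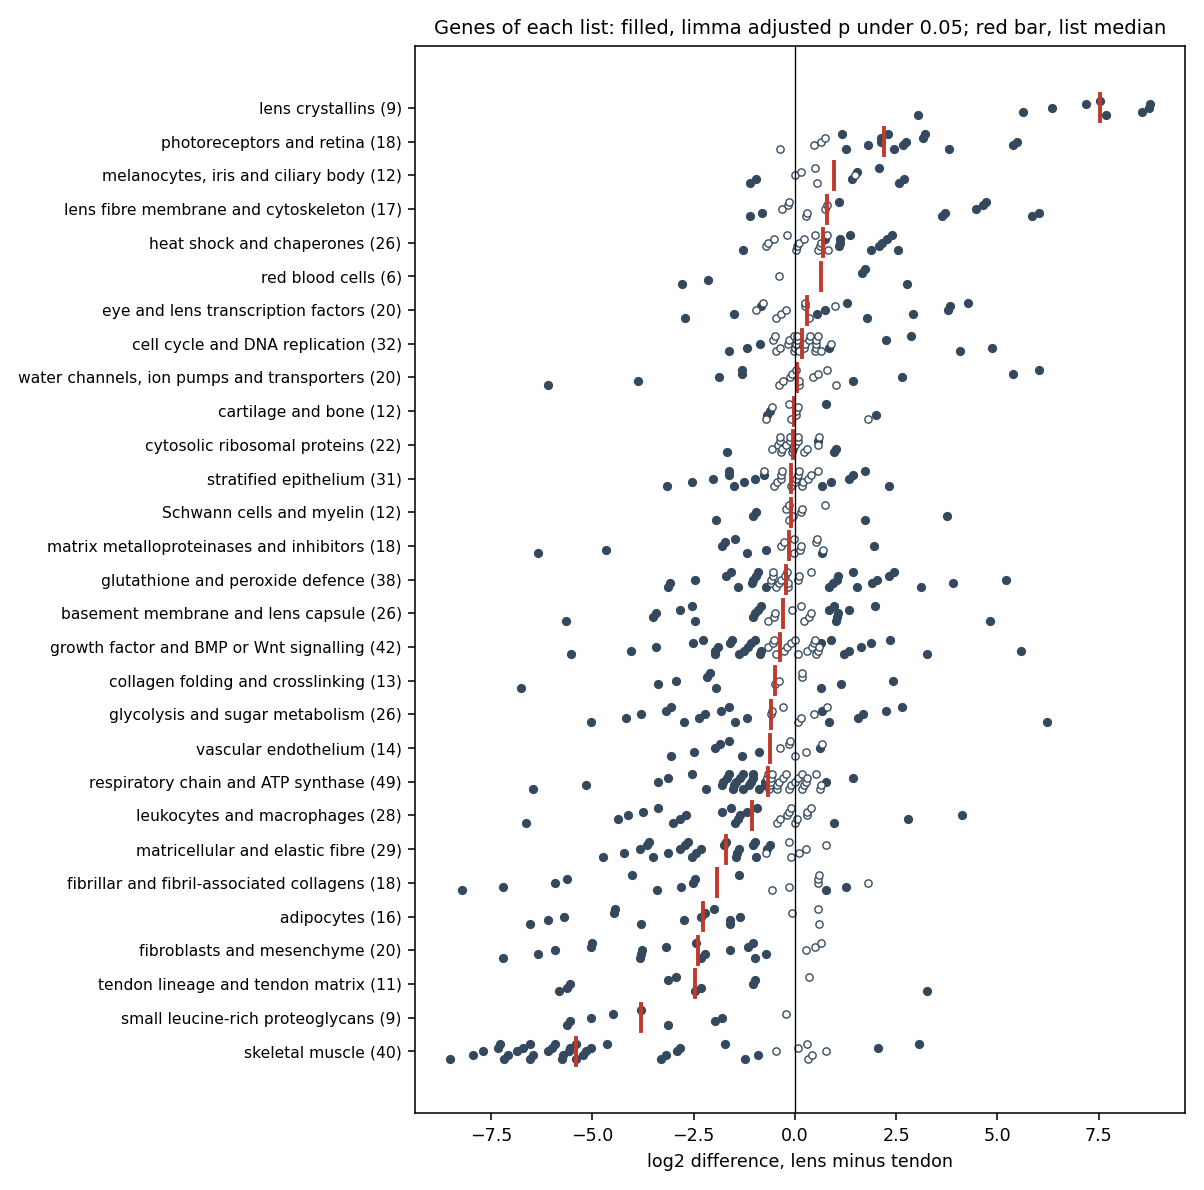
Log2 difference, lens minus tendon, for each measured gene of 29 lists, with filled points for limma adjusted p under 0.05, open points for the rest, a red bar at each list's median and the number of genes in brackets. Crystallins have a median of 7.54 and skeletal muscle one of -5.40, and basement membrane genes are spread on both sides of 0.

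Basement membrane genes went both ways, 8 of 26 higher in lens and 10 in tendon. Of the 5 type IV collagen chains measured, which form the network of the lens capsule, 4 were higher in lens. Col4a5 read 514 and 372 in lens and -6.11 and -4.01 in tendon (log2 4.82 ± 0.31 SE, limma adjusted p = 9.02e-07), Col4a3 20.6 and 25.1 in lens and -1.27 and 5.85 in tendon (2.07-fold, log2 1.05 ± 0.23 SE, limma adjusted p = 0.0039) and Col4a1 2484 and 1648 in lens and 739 and 862 in tendon (2.50-fold, log2 1.32 ± 0.22 SE, limma adjusted p = 0.000784). Col4a4 was not called, at 163 and 151 in lens and 127 and 105 in tendon (limma adjusted p = 0.506). Itga6, an integrin subunit of epithelial adhesion, was 3.91-fold higher in lens (limma adjusted p = 0.00177). Col4a2, the partner of Col4a1, read 1201 and 530.2 in lens and 406 and 370.3 in tendon (2.02-fold, log2 1.01 ± 0.32 SE, limma adjusted p = 0.0292). Nid1, for nidogen, read 672 and 296 in lens and 193 and 214 in tendon (2.11-fold, log2 1.08 ± 0.37 SE, limma adjusted p = 0.0423). Lens replicate 1 was above replicate 2 for both. Without lens replicate 1 neither was called (limma adjusted p = 0.191 and 0.324), nor without tendon replicate 1 (0.105 and 0.185) or tendon replicate 2 (0.147 and 0.135). The Nid1 call was also lost without P10 cornea replicate 1 or 2 (0.0580 each) or adult cornea replicate 2 (0.051). Without lens replicate 1, tendon replicate 1 or tendon replicate 2, 4 genes of the list were higher in lens.

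On the tendon side were laminin and perlecan genes of muscle and vessel basement membranes. Col15a1, a collagen beneath muscle fibres and capillaries, measured 1.76 and -5.62 in lens and 811 and 858 in tendon (log2 -5.66 ± 0.23 SE, limma adjusted p = 4.80e-08). Lamb2, a laminin chain of the neuromuscular junction, measured 15.98 and 2.11 in lens and 243 and 243 in tendon (10.7-fold, log2 -3.43 ± 0.28 SE, limma adjusted p = 4.90e-06). Hspg2, the perlecan gene, read 15.9 and 29.0 in lens and 241 and 271 in tendon (7.16-fold, log2 -2.84 ± 0.29 SE, limma adjusted p = 2.27e-05). None of these 3 overlapped between the tissues, as for 76.0% of all genes, and both tendon arrays were the higher ones.

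Of 18 matrix protease and inhibitor genes 7 were higher in tendon and 2 in lens (1 in lens without either tendon array). Serpinf1, which encodes pigment epithelium-derived factor, read 38.3 and 28.9 in lens and 3828 and 4211 in tendon (81.6-fold, log2 -6.35 ± 0.27 SE, limma adjusted p = 7.08e-08). Another Serpinf1 probe set was not called, at 177 and 242 in lens and 138 and 170 in tendon (limma adjusted p = 0.183). Serping1, the inhibitor of complement C1, read 98.2 and 29.4 in lens and 1724 and 1925 in tendon (25.5-fold, log2 -4.67 ± 0.40 SE, limma adjusted p = 7.42e-06). Timp1, a metalloproteinase inhibitor, was 2.78-fold higher in tendon (limma adjusted p = 0.000165), and Reck, a membrane-anchored one, 3.30-fold higher (limma adjusted p = 6.67e-05). Timp2 was higher in lens on its brightest probe set, at 439.7 and 509 in lens and 114 and 107 in tendon (3.88-fold, log2 1.95 ± 0.22 SE, limma adjusted p = 5.61e-05), and higher in tendon on another, at 109.6 and 80.4 in lens and 548 and 577 in tendon (limma adjusted p = 1.25e-05).

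Related forms of sugar metabolism enzymes differed in direction. Of 26 genes 7 were higher in lens and 12 in tendon. Aldoc, the brain-type aldolase, read 1546 and 904 in lens and -15.3 and -8.05 in tendon (log2 6.23 ± 0.32 SE, limma adjusted p = 2.18e-07), while Aldoa, the muscle form, read 1272 and 679 in lens and 4398 and 5329 in tendon (5.13-fold, log2 -2.36 ± 0.29 SE, limma adjusted p = 9.57e-05). Slc2a1, the widely expressed glucose transporter GLUT1, read 709 and 486 in lens and 80.3 and 79.6 in tendon (6.29-fold, log2 2.65 ± 0.28 SE, limma adjusted p = 3.18e-05), while Slc2a4, the insulin-responsive GLUT4 of muscle and fat, read 21.7 and 4.17 in lens and 349 and 383 in tendon (13.9-fold, log2 -3.79 ± 0.38 SE, limma adjusted p = 1.98e-05). Pfkm, the muscle phosphofructokinase, was 18.0-fold higher in tendon (limma adjusted p = 3.72e-07), Eno3, the muscle enolase, 9.04-fold (limma adjusted p = 9.78e-06), and Pygm, muscle glycogen phosphorylase, 32.7-fold (limma adjusted p = 1.00e-06). Pgam1, the brain-type phosphoglycerate mutase, was 3.19-fold higher in lens (limma adjusted p = 0.00119). Its muscle partner Pgam2 read 1133 and 869.7 in lens and 787 and 1124 in tendon and was not called (limma adjusted p = 0.858), and its tissues overlapped.

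The hexokinases split as well, Hk1 toward lens at 1629 and 1221 in lens and 847 and 901 in tendon (1.60-fold, log2 0.68 ± 0.20 SE, limma adjusted p = 0.022) and Hk2 toward tendon at 162 and 114 in lens and 332 and 329.6 in tendon (2.28-fold, log2 -1.19 ± 0.21 SE, limma adjusted p = 0.00124). The Hk2 call was lost with the mean over its probe sets (limma adjusted p = 0.143). Pfkl, the liver-type phosphofructokinase, was at 267 and 153 in lens and 103 and 108 in tendon (1.80-fold, log2 0.85 ± 0.26 SE, limma adjusted p = 0.0246). The calls of Hk1 and Pfkl were lost without lens replicate 1 (limma adjusted p = 0.107 and 0.163), tendon replicate 1 (0.122 and 0.121) or tendon replicate 2 (0.084 and 0.101). Eno2, the neuronal enolase, was not called, at 209 and 191 in lens and 102 and 116 in tendon (limma adjusted p = 0.0859), and passed without adult cornea replicate 2 (0.0204) or 3 (0.0207). Ldha and Pkm, which make lactate and pyruvate, were 4.69-fold and 8.40-fold higher in tendon (limma adjusted p = 7.96e-05 and limma adjusted p = 4.27e-05), and Pgk1 was not called, at 1139.8 and 658 in lens and 708 and 863 in tendon (limma adjusted p = 0.705). Tkt, transketolase of the pentose phosphate pathway, was 4.79-fold higher in lens (limma adjusted p = 5.83e-05).

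Respiratory chain and ATP synthase genes were higher in tendon for 23 of 49 members and in lens for 2, with a median of -0.65. The widest differences were in subunit forms of cytochrome oxidase restricted largely to muscle. Cox6a2 read 18.4 and 30.3 in lens and 3408 and 3609 in tendon (88.3-fold, log2 -6.46 ± 0.24 SE, limma adjusted p = 3.36e-08), Cox8b 14.7 and 14.1 in lens and 1017 and 1119 in tendon (35.6-fold, log2 -5.15 ± 0.36 SE, limma adjusted p = 1.73e-06) and Cox7a1 5.62 and 6.19 in lens and 189 and 233 in tendon (10.3-fold, log2 -3.37 ± 0.20 SE, limma adjusted p = 4.56e-07). Their widely expressed partners went to lens or were not called: Cox6a1 was at 2044 and 1347 in lens and 584 and 629.9 in tendon (2.69-fold, log2 1.43 ± 0.23 SE, limma adjusted p = 0.000715), Cox7a2 at 1269.7 and 988 in lens and 616 and 694 in tendon (1.70-fold, log2 0.76 ± 0.23 SE, limma adjusted p = 0.0222) and Cox8a at 19.8 and 19.2 in lens and 25.9 and 24.1 in tendon (limma adjusted p = 0.631). Other subunits were also higher in tendon. Atp5a1, of ATP synthase, was 3.43-fold higher in tendon (limma adjusted p = 0.000496), Ndufs1, of complex I, 3.09-fold (limma adjusted p = 6.67e-05), and Sdhc, of complex II, 5.80-fold (limma adjusted p = 1.63e-05). Cox4i1 was not called (limma adjusted p = 0.865). The Cox7a2 call was lost without lens replicate 1 (limma adjusted p = 0.119), tendon replicate 1 (0.136) or tendon replicate 2 (0.0716), which left 1 gene toward lens. Summed over the 40 muscle markers, the index was 90554 and 102230.0 on the tendon arrays and 4404 and 3876 on the lens arrays, and the part of muscle in the metabolic differences was not tested.

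**Figure D4:**
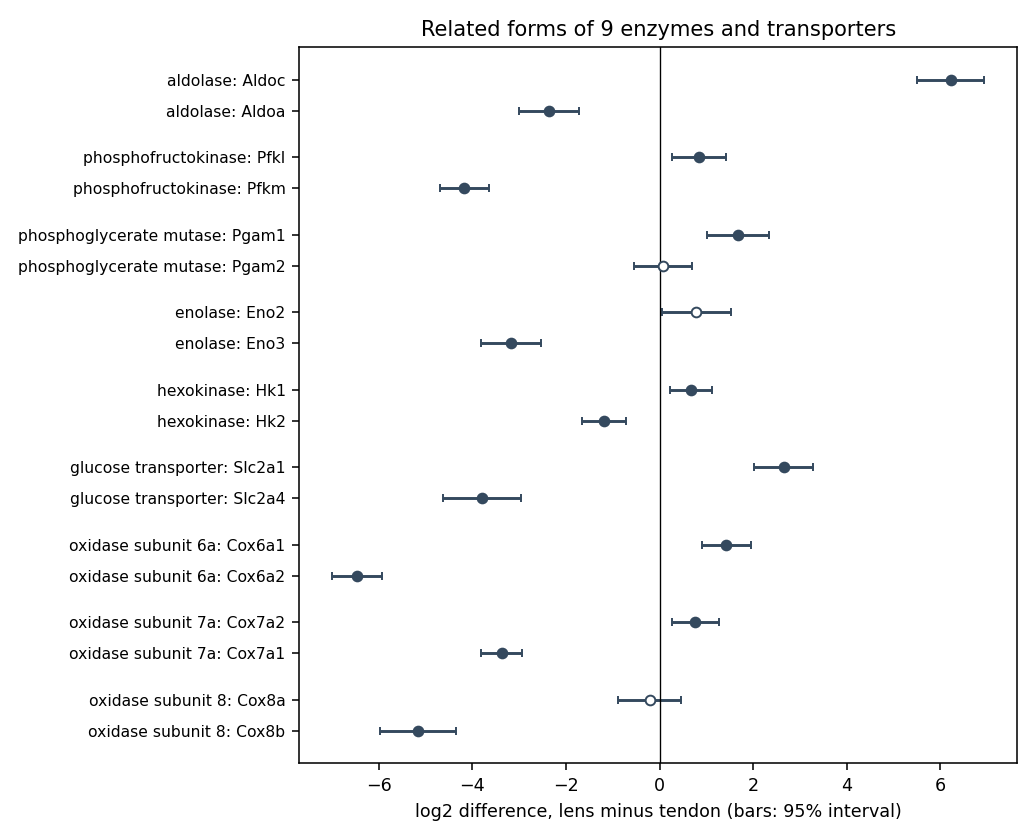
Log2 difference, lens minus tendon, for related forms of 9 enzymes and transporters, with points for limma's estimate, bars for its 95% interval, filled points for adjusted p under 0.05 and open points for the rest. Forms known from muscle lie left of 0 for aldolase, phosphofructokinase, enolase, hexokinase, glucose transporter and the oxidase subunits, and Pgam2 lies at 0.08.

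Skeletal muscle genes had the largest summed index of any gene list on the tendon arrays, at 90554 and 102230. The fibrillar and fibril-associated collagens, a list of 18 genes, summed to 25604 and 27536 there. Of 40 markers 32 were higher in tendon, with a median log2 difference of -5.40. Myh4, the fastest myosin heavy chain, read 1.49 and 0.27 in lens and 5579.9 and 6738 in tendon (364-fold, log2 -8.51 ± 0.28 SE, limma adjusted p = 1.71e-08). Myh7, the slow one, read 1.76 and -0.95 in lens and 4257 and 4044 in tendon (247-fold, log2 -7.95 ± 0.31 SE, limma adjusted p = 4.48e-08). Mb, for myoglobin, read -10.0 and -5.14 in lens and 3225 and 3450.4 in tendon (log2 -7.71 ± 0.26 SE, limma adjusted p = 1.71e-08). Ckm, for muscle creatine kinase, read 3.90 and 19.6 in lens and 3349 and 3879.7 in tendon (136-fold, log2 -7.09 ± 0.30 SE, limma adjusted p = 5.78e-08). Acta1, skeletal actin, was 105-fold higher in tendon (limma adjusted p = 3.30e-07), Tnnt3, the fast troponin T, 156-fold (limma adjusted p = 1.71e-08), and Atp2a1, the calcium pump of fast fibres, 67.8-fold (limma adjusted p = 4.48e-08). Des and Tnni2 had lens means below 0 and tendon values of 2192 and 2418 and 2447 and 2776 (limma adjusted p = 1.02e-07 and limma adjusted p = 5.78e-08). Genes of fast and of slow fibres were thus both on the tendon side.

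The window of Myh4 (chr11:67237562-67237811, plus strand) is shown as the muscle gene with the widest difference. It holds TATAAA at the places in capitals, and no TGCTGA. The latter motif was not confined to lens genes. Windows of Ckm, Fmod and Col3a1, all higher in tendon, hold TGCTGA or its reverse complement, and those of Col1a2, Chad and Acta1 hold neither.
Myh4: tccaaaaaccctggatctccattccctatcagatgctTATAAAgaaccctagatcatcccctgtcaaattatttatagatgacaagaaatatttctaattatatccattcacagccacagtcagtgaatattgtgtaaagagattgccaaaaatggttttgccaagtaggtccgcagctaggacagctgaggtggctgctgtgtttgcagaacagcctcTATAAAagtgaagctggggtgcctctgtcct

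Some probe sets of muscle genes ran the other way. Second probe sets of Myh4, Mb and Ckm were higher in lens, at 114 and 185 in lens and 72.0 and 61.4 in tendon for Myh4 (limma adjusted p = 0.0108), 497 and 455 in lens and 258 and 213 in tendon for Mb (limma adjusted p = 0.00841) and 70.5 and 84.0 in lens and 48.9 and 39.1 in tendon for Ckm (limma adjusted p = 0.0433). Of the 2 muscle genes called toward lens, Tnnc1 stood at 133 and 103 in lens and -1336 and -869.9 in tendon (log2 3.06 ± 0.23 SE, limma adjusted p = 2.96e-06), a call that rests on tendon values far below 0 and was not tested once probe sets below -100 were dropped. Myh2, the heavy chain of intermediate fast fibres, was at 108 and 175 in lens and 22.6 and 19.6 in tendon (4.15-fold, log2 2.05 ± 0.26 SE, limma adjusted p = 0.000113). Dach1, a transcription factor among the widest differences toward tendon, was at -73.7 and -111 in lens and 1823 and 2055 in tendon (log2 -6.93 ± 0.38 SE, limma adjusted p = 3.16e-07), and its other probe set was not called, at 6.48 and 15.98 in lens and 15.8 and 17.7 in tendon (limma adjusted p = 0.52).

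Fat cell genes were also on the tendon arrays. Of 16 markers 13 were higher in tendon and 0 in lens, and their summed index was 17312 and 17148 in tendon and 2261 and 2423 in lens. Scd1, the stearoyl-CoA desaturase, read 45.7 and 21.0 in lens and 4638 and 4259 in tendon (93.5-fold, log2 -6.55 ± 0.29 SE, limma adjusted p = 8.17e-08), Car3, carbonic anhydrase 3 of fat and slow muscle, 67.9 and 51.4 in lens and 4827 and 5389.6 in tendon (68.0-fold, log2 -6.09 ± 0.21 SE, limma adjusted p = 1.71e-08). Adipoq, the adiponectin gene specific to adipocytes, read 35.0 and 24.4 in lens and 1162 and 804 in tendon (21.6-fold, log2 -4.44 ± 0.26 SE, limma adjusted p = 4.06e-07). Fabp4 was 22.2-fold higher in tendon (limma adjusted p = 2.28e-07). Lep, the leptin gene, was not called, at 1329.7 and 1620.0 in lens and 1181 and 814 in tendon (limma adjusted p = 0.126).

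Fibroblast markers were higher in tendon for 17 of 20 genes and in lens for 0 by limma, although several of them are the collagen and proteoglycan genes above. Thy1, a surface glycoprotein of fibroblasts, read -7.27 and -27.8 in lens and 492 and 506 in tendon (log2 -5.01 ± 0.34 SE, limma adjusted p = 1.34e-06). Gsn, for the actin-severing protein gelsolin, read 453 and 251 in lens and 4574 and 5115 in tendon (13.7-fold, log2 -3.78 ± 0.31 SE, limma adjusted p = 4.91e-06). Prrx1, a limb mesenchyme factor, read 29.6 and 35.4 in lens and 186 and 236 in tendon (4.65-fold, log2 -2.22 ± 0.23 SE, limma adjusted p = 3.02e-05). Of the 20 genes 17 had an unadjusted p under 0.05, none toward lens.

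Of 28 leukocyte genes 15 were higher in tendon and 3 in lens. Lyz2, macrophage lysozyme, measured -4.02 and -7.84 in lens and 285 and 341 in tendon (log2 -4.36 ± 0.24 SE, limma adjusted p = 3.15e-07). Cd74, the class II invariant chain, read 39.9 and 21.5 in lens and 488 and 432 in tendon (10.4-fold, log2 -3.37 ± 0.31 SE, limma adjusted p = 1.05e-05). Mrc1, the mannose receptor, read 10.8 and 12.3 in lens and 198 and 217 in tendon (8.11-fold, log2 -3.02 ± 0.23 SE, limma adjusted p = 3.07e-06). The complement genes C1qa and C1qb read higher in lens (749.8 and 662 against 77.1 and 100.4, limma adjusted p = 1.76e-05, and 1378 and 1571 against 64.003 and 74.3, limma adjusted p = 1.53e-05), while C1qc, the third chain of the same protein, was 2.78-fold higher in tendon (limma adjusted p = 0.000239). A second C1qb probe set was higher in tendon, at 10.9 and 4.72 in lens and 221 and 238 in tendon (limma adjusted p = 3.46e-06), and their mean was not called (limma adjusted p = 0.279). Of 14 endothelial genes 7 were higher in tendon, 1 was higher in lens and 6 were not called. Cdh5, VE-cadherin, was below 0 on both lens arrays and at 109.7 and 127 in tendon (limma adjusted p = 4.13e-06). Cldn5, a tight junction gene of endothelium, was at 9.20 and 11.4 in lens and 80.9 and 92.6 in tendon (limma adjusted p = 0.000438). Vwf, the von Willebrand factor gene, was at 8.82 and 10.2 in lens and 118 and 138 in tendon (5.63-fold, log2 -2.49 ± 0.24 SE, limma adjusted p = 1.40e-05). Its other probe set was higher in lens, at 99.3 and 99.1 in lens and 12.2 and -1.22 in tendon (limma adjusted p = 0.000345), and their mean was not called (limma adjusted p = 0.935). Sele, for E-selectin, was the member higher in lens, at 27.5 and 33.9 in lens and 14.7 and 13.8 in tendon (1.54-fold, log2 0.62 ± 0.21 SE, limma adjusted p = 0.0405). It was not called without either lens array (limma adjusted p = 0.0584 and 0.157), tendon array (0.11 and 0.133) or P10 cornea array (0.0651 and 0.0655).

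Red blood cell genes went both ways, 3 of 6 higher in lens and 2 in tendon, with a median of 0.64. The globin genes were on the tendon side, Hba-a1 at 204 and 215 in lens and 1593 and 1473 in tendon (6.87-fold, log2 -2.78 ± 0.28 SE, limma adjusted p = 2.15e-05) and Hbb-b2 at 127 and 166 in lens and 659.5 and 726 in tendon (4.40-fold, log2 -2.14 ± 0.28 SE, limma adjusted p = 0.000147). Alas2, of heme synthesis, was at 213 and 198 in lens and 41.1 and 61.5 in tendon (3.33-fold, log2 1.74 ± 0.22 SE, limma adjusted p = 0.00013). Slc4a1, an anion exchanger, was 3.16-fold higher in lens (limma adjusted p = 0.000258), and Car2, a carbonic anhydrase also found outside red blood cells, 6.85-fold (limma adjusted p = 0.00028).

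Retinal genes were found on the lens arrays. Of 18 photoreceptor and retina markers 14 were higher in lens and 0 in tendon by limma (16 of the 18 had an unadjusted p under 0.05), with a median of 2.21. Sag, the rod arrestin gene, read 1015 and 533 in lens and -5.27 and 1.81 in tendon (log2 5.48 ± 0.60 SE, limma adjusted p = 4.16e-05). Gnat1, rod transducin, read 905 and 582 in lens and 1.77 and 1.53 in tendon (42.1-fold, log2 5.39 ± 0.69 SE, limma adjusted p = 0.000128). Pdc, phosducin of photoreceptors, read 422 and 247 in lens and 6.60 and 10.3 in tendon (13.9-fold, log2 3.80 ± 0.34 SE, limma adjusted p = 1.02e-05). Rlbp1, a retinoid carrier of Müller glia and pigment epithelium, was at 120.3 and 79.9 in lens and 2.94 and 7.43 in tendon (5.43-fold, log2 2.44 ± 0.25 SE, limma adjusted p = 2.84e-05). The summed index of the 18 genes was 5198 and 3546 on lens replicates 1 and 2 and 664 and 699 on the tendon arrays. Lens replicate 1 was thus above replicate 2 in retinal markers, as it was for the eye transcription factors named above, and their part in those differences was not tested. The order was not particular to these lists. Summed indices on lens replicates 1 and 2 were 12907 and 8227 for sugar metabolism and 28154 and 21198 for the respiratory chain list. Crystallins went the other way, at 53867 and 58210.

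Of 12 iris, ciliary body and pigment cell genes 5 were higher in lens and 2 in tendon. Cp, ceruloplasmin, measured 519 and 403 in lens and 61.7 and 52.0 in tendon (6.51-fold, log2 2.70 ± 0.23 SE, limma adjusted p = 5.98e-06). Ptgds, prostaglandin D synthase of ciliary body and pigment epithelium, read 1052 and 502 in lens and 94.0 and 129 in tendon (5.90-fold, log2 2.56 ± 0.38 SE, limma adjusted p = 0.000366). Zic1 was at 255 and 58.9 in lens and 16.9 and 18.4 in tendon (4.23-fold, log2 2.08 ± 0.46 SE, limma adjusted p = 0.00469), with lens replicate 1 far above replicate 2. The count toward lens was 3 without lens replicate 1 or tendon replicate 1. The count toward tendon was 1 without lens replicate 1 or either P10 cornea array and 0 without lens replicate 2 or either tendon array. Pmel, a melanosome protein gene, was not called, at 176 and 176 in lens and 111 and 119 in tendon (limma adjusted p = 0.394). Tyrp1, another pigment cell gene, was not called on its brightest probe set, and its other probe sets disagreed. One was higher in lens, at 33.4 and 30.7 in lens and -0.299 and 5.30 in tendon (limma adjusted p = 0.0225). Another was higher in tendon, at -1.64 and -1.06 in lens and 12.95 and 8.67 in tendon (limma adjusted p = 0.0103), and a further one was not called.

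Epidermal keratins differed between the tendon arrays. Krt10, a keratin of the upper epidermis, read 1853 on tendon replicate 1 and 464 on replicate 2, against 93.1 and 86.3 in lens (8.96-fold, log2 -3.16 ± 0.48 SE, limma adjusted p = 0.000416). Krt14, of basal epidermis, read 124 and 20.5 in tendon and 4.18 and 10.2 in lens (3.11-fold, log2 -1.64 ± 0.49 SE, limma adjusted p = 0.0217), and its call was lost without lens replicate 1 (limma adjusted p = 0.131), lens replicate 2 (0.0722) or tendon replicate 1 (0.161). Dsp, for desmoplakin, was not called, at 109.6 and 82.0 in lens and 316 and 90.5 in tendon (limma adjusted p = 0.172), and passed toward tendon without tendon replicate 2 (0.00249). Krt12, the corneal keratin, was higher in lens, at 1758 and 1603 in lens and 401 and 257 in tendon (5.03-fold, log2 2.33 ± 0.23 SE, limma adjusted p = 1.78e-05). Of 31 epithelial genes 9 were higher in tendon, or 4 without lens replicate 1 or tendon replicate 1, and 6 in lens, or 3 without tendon replicate 2 (4 without lens replicate 1). Over all genes the shares were 23.2% toward tendon and 18.9% toward lens. The summed index of the epithelial list was 8569 and 5843 on tendon replicates 1 and 2 and 5899 and 5601 in lens.

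Signalling genes had members on each side, 9 of 42 higher in lens and 17 in tendon. Wnt pathway genes were among those in lens. Sfrp1, a secreted Wnt antagonist, read 1024 and 626 in lens and 2.12 and -2.37 in tendon (log2 5.59 ± 0.32 SE, limma adjusted p = 3.66e-07), and the ligand Wnt7b 217 and 138 in lens and 21.8 and 20.2 in tendon (5.12-fold, log2 2.36 ± 0.34 SE, limma adjusted p = 0.000299). Fgfr2, a receptor for the fibroblast growth factors that drive fibre differentiation, was 3.68-fold higher in lens (limma adjusted p = 0.000364). The insulin-like growth factor binding proteins differed in direction. Igfbp6 stood at 81.9 and 53.3 in lens and 3688 and 3823 in tendon (45.8-fold, log2 -5.52 ± 0.27 SE, limma adjusted p = 1.32e-07) and Igfbp4 at 104 and 30.1 in lens and 553 and 1101 in tendon (10.7-fold, log2 -3.43 ± 0.44 SE, limma adjusted p = 0.000135). Igfbp7 was also higher in tendon, at 1286 and 896 in lens and 1901 and 2019 in tendon (1.81-fold, log2 -0.86 ± 0.27 SE, limma adjusted p = 0.0278), but not without lens replicate 2 (limma adjusted p = 0.185), tendon replicate 1 (0.105) or tendon replicate 2 (0.139). Igfbp3 was higher in lens, at 242 and 223 in lens and 81.3 and 49.5 in tendon (3.11-fold, log2 1.64 ± 0.34 SE, limma adjusted p = 0.00346), and was not called without tendon replicate 2 (0.0507) or with a pseudocount of 1 (0.238). Its other probe set was not called, at 50.1 and 87.5 in lens and 91.1 and 63.2 in tendon (limma adjusted p = 0.718), nor was the mean of both (0.0607). Igfbp2 was not called, at 74.9 and 28.8 in lens and 25.4 and 27.7 in tendon (limma adjusted p = 0.164). Ctsk, the collagen-degrading cathepsin K, was 16.5-fold higher in tendon (limma adjusted p = 5.80e-07), and Igf2 4.78-fold (limma adjusted p = 0.000104). Probe sets of Igf1 disagreed, with 28.5 and 33.4 in lens and 265 and 305 in tendon on one (limma adjusted p = 0.000214) and 456 and 517 in lens and 292 and 321 in tendon on the brightest (1.56-fold, log2 0.64 ± 0.22 SE, limma adjusted p = 0.038). The Igf1 call toward lens was lost without lens replicate 1 or 2 (limma adjusted p = 0.0602 and 0.145), tendon replicate 1 or 2 (0.181 and 0.106) or P10 cornea replicate 1 or 2 (0.0626 and 0.0627).

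Of 20 water channel, pump and transporter genes 4 were higher in lens and 5 in tendon, shares close to the 18.9% and 23.2% of all genes. Atp1b2 and Atp1b3, beta subunits of the sodium pump, were at 935 and 702 in lens and 2.37 and 5.52 in tendon (41.6-fold, log2 5.38 ± 0.32 SE, limma adjusted p = 4.98e-07) and 2037 and 1155 in lens and 543 and 565 in tendon (2.72-fold, log2 1.44 ± 0.28 SE, limma adjusted p = 0.00195). Another Atp1b2 probe set was not called, at 44.8 and 41.8 in lens and 58.8 and 80.3 in tendon (limma adjusted p = 0.242). Atp2a2, the calcium pump of slow muscle and other cells, was 14.8-fold higher in tendon (limma adjusted p = 1.00e-06), and Slc1a5, a neutral amino acid transporter, 3.64-fold (limma adjusted p = 8.05e-05). Aqp1, the water channel of vessels and lens epithelium, was at 133 and 64.8 in lens and 240.2 and 269 in tendon (2.46-fold, log2 -1.30 ± 0.29 SE, limma adjusted p = 0.0049), a call lost with the mean over probe sets (limma adjusted p = 0.107).

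Cell cycle genes gave 5 of 32 higher in lens and 3 in tendon, shares below the 18.9% and 23.2% of all genes. The count toward lens was 8 without adult cornea replicate 2 or with means over probe sets. The genes higher in lens included Cdkn1b and Cdkn1c, inhibitors known to hold fibre cells out of division. Cdkn1b, for p27, read 1235 and 1750.5 in lens and 225 and 157 in tendon (7.28-fold, log2 2.86 ± 0.34 SE, limma adjusted p = 7.49e-05). Its other probe set was low and not called, at 28.9 and 8.03 in lens and 28.2 and 18.1 in tendon (limma adjusted p = 0.603). Cdkn1c, for p57, read 1365 and 906 in lens and 202 and 240.2 in tendon (4.78-fold, log2 2.26 ± 0.27 SE, limma adjusted p = 7.21e-05). Cdk2 was at 1111 and 1128 in lens and 54.4 and 48.7 in tendon (16.8-fold, log2 4.07 ± 0.42 SE, limma adjusted p = 2.80e-05). Another Cdk2 probe set was not called, at 215 and 151 in lens and 162 and 169 in tendon (limma adjusted p = 0.762). Rrm2, a subunit of ribonucleotide reductase, was at 374 and 546 in lens and -39.0 and -36.7 in tendon (log2 4.87 ± 0.24 SE, limma adjusted p = 1.37e-07). Of the list 24 genes were not called. Mki67 was among them, at 30.9 and 21.5 in lens and 22.4 and 12.4 in tendon (limma adjusted p = 0.456), and so was Cdk1, at 98.4 and 107 in lens and 98.1 and 99.5 in tendon (limma adjusted p = 0.894). Plk1 and Tk1 were not called on their brightest probe sets (limma adjusted p = 0.18 and limma adjusted p = 0.0832), but each had another that was higher in lens, at 384 and 165 in lens and 3.67 and 13.4 in tendon for Plk1 (limma adjusted p = 0.000997) and 132 and 181 in lens and 27.9 and 57.4 in tendon for Tk1 (limma adjusted p = 0.00383).

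The bright genes that differed least were mostly for ribosomal proteins. Rpl41 measured 5856 and 6307 in lens and 5309 and 6349.9 in tendon (limma adjusted p = 0.791), Rps18 2959 and 2598 in lens and 2568 and 2645 in tendon (limma adjusted p = 0.728) and Rps7 2986 and 2676 in lens and 2792 and 2889 in tendon (limma adjusted p = 0.982). Of 22 ribosomal protein genes 18 were not called, 3 were higher in lens and 1 in tendon. Without tendon replicate 1 the count toward lens was 1, and without lens replicate 1 the count toward tendon was 2. After quantile normalization 9 were higher in lens, and the list's median moved from -0.055 to 0.26, so the evenness of these genes depends on the scaling. Rpl22 was the member higher in tendon, at 81.8 and 116 in lens and 357 and 334 in tendon (3.18-fold, log2 -1.67 ± 0.25 SE, limma adjusted p = 0.000355).

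Agreement between probe sets of a gene limited many readings. Among those not given above, uncalled further probe sets included those of Fmod, Eln, Krt10, Rpl22 and Igf2. A second Crybb2 probe set was not called either, at 154 and 148 in lens and 132 and 159 in tendon (limma adjusted p = 0.866). The same held for further probe sets of Aldh3a1, Hsp90aa1, Mgst3, Tgfbi, Timp1, Lyz2 and Slc2a4, and these examples are not a full list. Genes called toward lens had 531 further probe sets, of which 140 were called the same way, 323 were not called and 68 were called the opposite way. For genes called toward tendon these counts were 191, 361 and 64 of 616. Among 118 calls toward lens and 310 toward tendon, the mean index of the lower tissue was at or below 0.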

How the data were processed

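Biotin-labelled target was hybridised to Affymetrix mouse arrays, 1 RNA preparation an array. The authors deposited intensity values on a linear scale, some below 0 on every array. Per the series' design text, detection calls came from Microarray Suite and normalization on an invariant set, with a model-based index, from dChip. The submitters' processing notes name MAS5, and the sources used here do not say which program gave the deposited values.

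Indices below 0 were set to 0, 16 was added and log2 taken. limma 3.58.1 (R 4.3.3) fitted group means over the 9 arrays with a variance trend (5 residual and 5.412 prior degrees of freedom). Two-sided p-values were adjusted by Benjamini-Hochberg over 12422 probe sets. A fold on this scale understates the difference of a low gene. Array medians ran from 67.6 to 88.0, and the number of arrays limits how precisely values are known. The 3'/5' ratios of Gapdh and actin were 2.28 and 4.68 on adult cornea replicate 1. Of the probe sets 10833 had 1 gene symbol in the platform annotation, 396 several and 1193 none, which gave 8251 genes.

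The members and the 29 gene lists (596 of 774 genes on the array) were chosen with earlier results of these data known, and lists were described by counts and medians. Genes were named from the 12 widest called differences of at least 2-fold in each direction without overlap, up to 4 called members of each list, a standing set of lens, tendon and muscle genes, and the 8 brightest genes within 1.25-fold. Others were chosen after their values were seen. Alternatives covered the pseudocount, filters, scaling, the arrays fitted, a replicate block, means over probe sets, the methods' t-test and leaving out each array. On simulated data for lens against tendon over 12422 probe sets, 44% of 100 changed 2-fold and 100% of 100 changed 4-fold were recovered, with 8.28% of calls false. The changed probe sets were drawn only from those with a mean above the median. They were a far smaller share than the 39.1% of probe sets called here, so these rates do not describe this comparison. Promoter windows are RefSeq's.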

Additional observations from a re-analysis of the deposited data

How the results depend on the processing

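The counts of 2223 probe sets higher in lens and 2633 higher in tendon stayed within 1.5 times under 2 pseudocounts, filters on low and on negative values, 3 scalings, a fit of only the 4 arrays and the replicate block. Over the 9 fits that left out 1 array the lens count ran from 1373 (without tendon replicate 1) to 2497 (without adult cornea replicate 2) and the tendon count from 1668 (without tendon replicate 2) to 2925. A group left with 1 array was assumed to vary like the others. The methods' t-test with their limits of 2-fold and 100 units called 486 and 757, of which limma called 484 and 746 in the same direction, and 0 and 0 after Benjamini-Hochberg, against 5888 probe sets with an unadjusted limma p under 0.05. Whether the replicate numbers pair the samples cannot be told from these arrays. Deviations of lens and tendon arrays of the same number correlated at r = -0.132. With 2 arrays a tissue, crossed numbers must give the same size with the opposite sign. With the number as a replicate block the counts were 2409 and 2815, or 2194 and 2522 in a fit of the 4 arrays, and with crossed numbers, an alternative chosen after seeing the data, 2703 and 3137.

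Of 214 called genes among 243 examined, 184 kept their call in each of 20 alternatives that tested them, 30 lost it or turned in some, and 24 lost it when 1 array was left out. The sign turned for Timp2 (-0.041), Egr1 (0.37) and Igf1 (-1.02) with the mean over probe sets, which averages probe sets that disagree, and for Rps7 with quantile normalization (0.35, limma adjusted p = 0.0479). The cause of the last was not tested. The median of 7 of the 29 lists changed sign in some fit.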

Other observations

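Replicates of 1 tissue could differ widely on a probe set that still separated the tissues. Apoe, the apolipoprotein E gene, read 298.7 on lens replicate 1 and -373 on lens replicate 2, against 2252 and 1763 in tendon. Mrvi1 was among the 13 probe sets higher on lens replicate 2, at 403 and 1128 on lens replicates 1 and 2. Pecam1, an endothelial gene, was below 0 on all 4 arrays, at -264 and -341 in lens and -388 and -254 in tendon.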
